A study of Sus scrofa with 12 samples.

Results

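Myostatin (MSTN), follistatin (FST) and the myogenic factors MYF5, MYOD1 and MYF6 were followed in a back muscle, the longissimus dorsi, of pigs of the Meishan breed. These 5 genes are part of 6765 with an annotated symbol, and all probe sets annotated to them were taken, which gave 9 of the 23999 that are not controls. MSTN, FST, MYOD1 and MYF6 each had a brighter and a dimmer probe set, and MYF5 had 1. All 9 were among the 16166 probe sets that passed the filter on low values, which asked for a value above the 40th percentile of its own array on at least 3 arrays.

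The study compared 4 stages of development with 3 arrays each: the fetus at 65 days post coitus (dpc), and pigs at 3, 60 and 120 days after birth. Per the labels each array is a biological replicate, and the fetuses of a single sow were treated as 1 individual. All animals were Meishan pigs kept under commercial feeding, and no further treatment or sex is given. Muscle was frozen, total RNA was extracted and hybridised to Affymetrix porcine arrays, and the deposited value of a probe set is an intensity on a linear scale.

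Myostatin is a secreted member of the transforming growth factor beta family that restrains the growth of skeletal muscle, and follistatin binds myostatin and activins and blocks them. MYF5, MYOD1 and MYF6 (also called MRF4) are basic helix-loop-helix transcription factors that commit cells to the muscle lineage and drive their differentiation. In mice MYF5 and MYOD1 mark myoblasts and activated satellite cells, the stem cells of muscle, while MYF6 is the myogenic factor with the highest expression in mature fibres.

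The arrays had medians between 49.1 and 52.6 and correlated within a stage with r from 0.905 to 0.985 across probe sets. Of 12 markers of muscle fibres 7 were measured, and their summed intensity was 18599 to 26914 on fetal arrays and, after birth, 39929 to 44986 (3 days), 42521 to 48106 (60 days) and 48286 to 50176 (120 days). Markers of fibroblasts and connective tissue (7 of 9 measured) summed to 12338 to 19588 on fetal arrays and to 3610.4 to 5537 (3 days), 3392 to 6697 (60 days) and 3787 to 5873 (120 days) later. NCAM1 and CHRNA1, the 2 of 10 markers of satellite cells and myoblasts that were measured, summed to 481 to 560.1 on fetal arrays and to 89.5 to 176 (3 days), 71.5 to 90.7 (60 days) and 75.3 to 89.0 (120 days) later. Only NCAM1 was called lower at 3 days, with a mean of 40.4 against 410 in the fetus. CHRNA1 averaged 78.2 at 3 days and 101 in the fetus and was not called (limma adjusted p = 0.242). The actin control's 3-prime over 5-prime intensity, a measure of RNA integrity and labelling, was 2.45 ± 0.168, 3.61 ± 1.06, 5.10 ± 1.17 and 5.08 ± 0.896 in stage order (SD, n = 3 each). The part of these shifts in the results below was not tested.

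**Figure D1:**
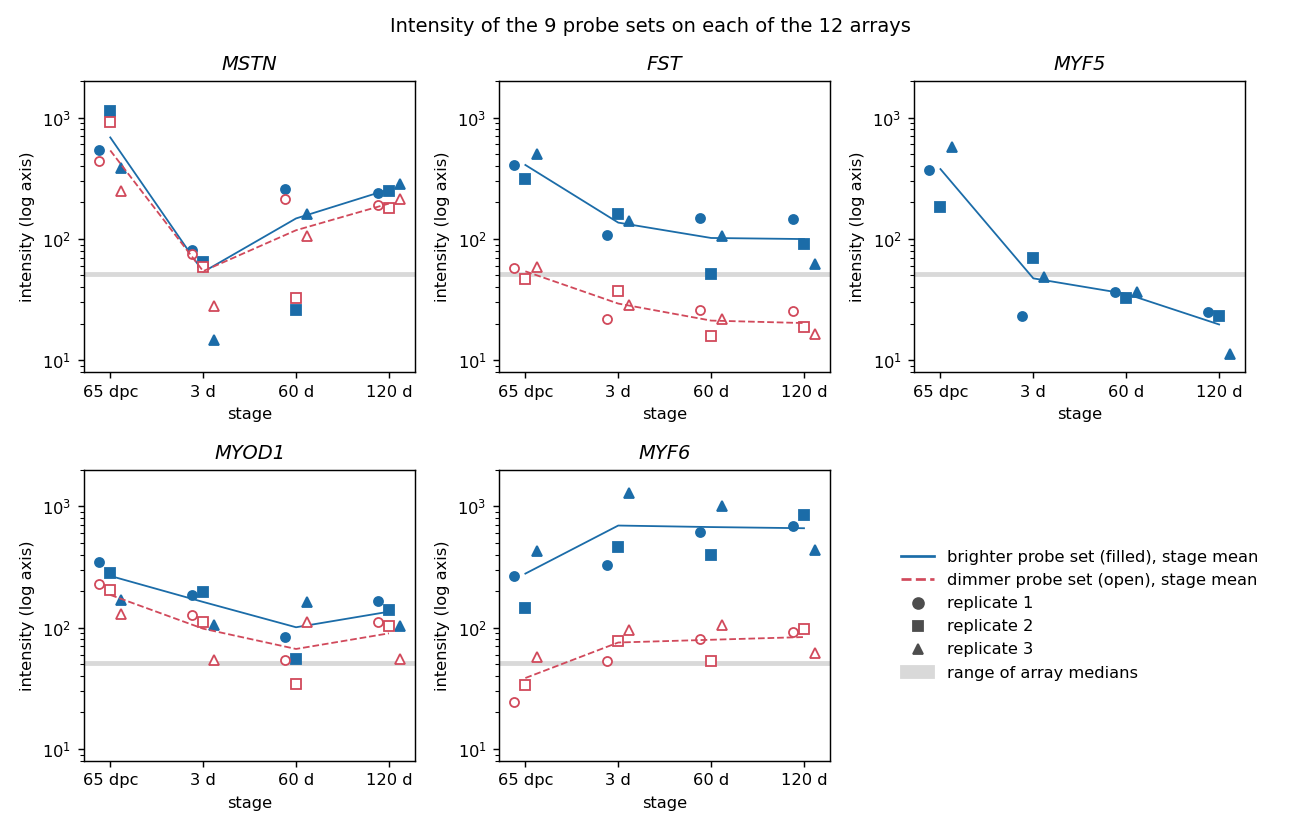
Intensity on a log axis (vertical) at the 4 stages (horizontal) for the 9 probe sets of MSTN, FST, MYF5, MYOD1 and MYF6. Points are single arrays, lines join stage means and the grey band is the range of array medians, 49.1 to 52.6. MSTN is lowest at 3 days, FST and MYF5 are highest on the fetal arrays, and the MYF6 means are lowest in the fetus.

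MSTN was high in the fetus, low at 3 days, scattered at 60 days and even at 120 days. The brighter probe set read 537, 1136 and 385 on the fetal arrays. It read 80.6, 65.1 and 14.6 at 3 days, 257, 26.1 and 159.5 at 60 days, and 238, 248 and 282 at 120 days. All fetal arrays lay above all later ones. The arrays of 3 days lay below those of 120 days, and 60 days overlapped both. The means were 686 ± 397, 53.5 ± 34.5, 148 ± 116 and 256 ± 22.9 (SD, n = 3) in stage order.

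At 3 days MSTN was lower than in the fetus, by a log2 change of -3.24 ± 0.59 (SE, 95% interval -4.53 to -1.95, limma adjusted p = 0.00115). The fetal mean was 12.8 times that at 3 days. Log2 changes were taken on log2(value + 21), a scale that understates the changes of dim probe sets. In whole muscle, fewer cells of a type and less RNA per cell cannot be told apart. The dimmer probe set read 75.8, 59.1 and 28.0 at 3 days, against 437, 920.3 and 250.1 in the fetus. It fell by 2.76 ± 0.51 on the log2 scale (limma adjusted p = 0.00123). Over the 12 arrays, the brighter and the dimmer probe set of MSTN differed in their centred log2 values by a root mean square of 0.28 and correlated with r = 0.989.

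The postnatal differences of MSTN did not pass the test. At 60 days against 3 days the log2 change was 0.97 ± 0.59 (limma adjusted p = 0.454), and at 120 days against 60 days it was 1.05 ± 0.59 (adjusted p = 0.785). Over the whole postnatal span, the mean at 120 days was 4.79 times that at 3 days, without overlap of the arrays. That log2 change was 2.03 ± 0.59 (95% interval 0.74 to 3.31, unadjusted p = 0.00489, limma adjusted p = 0.0764), and it was called without 60 days replicate 2 (adjusted p = 0.0205) and with array weights (adjusted p = 0.00103). The dimmer probe set gave 1.58 ± 0.51 for the same comparison (adjusted p = 0.108), and was called without 60 days replicate 2 (adjusted p = 0.0488). Against the fetus, MSTN fell by 2.26 ± 0.59 at 60 days (limma adjusted p = 0.00979). At 120 days it differed from the fetus by -1.21 ± 0.59 (95% interval -2.50 to 0.08, adjusted p = 0.109), which passed the test without 60 days replicate 2 (adjusted p = 0.033). At 120 days the dimmer probe set differed from the fetus by -1.18 ± 0.51 (adjusted p = 0.0733), and was called without 65 dpc replicate 3 (adjusted p = 0.0243), 60 days replicate 1 (0.0413) or 60 days replicate 2 (0.0317).

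FST, the antagonist, was highest in the fetus, and its brighter probe set had no called difference among the later stages. Its brighter probe set read 409, 312 and 499 in the fetus. It read 108, 160.5 and 140.1 at 3 days, 149, 51.1 and 105 at 60 days, and 146, 90.7 and 62.4 at 120 days. Every fetal array was above every later array, and the 3 later stages overlapped each other. The means were 407 ± 93.4, 136 ± 26.3, 102 ± 49.1 and 99.8 ± 42.6 (SD, n = 3) in stage order. Against the fetus FST fell by 1.43 ± 0.32 on the log2 scale at 3 days (limma adjusted p = 0.00407). At 60 days it fell by 1.86 ± 0.32 (adjusted p = 0.000806), and at 120 days it also fell by 1.86 ± 0.32 (adjusted p = 0.000626).

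From 3 to 60 days the log2 change of FST was -0.43 ± 0.32 (95% interval -1.13 to 0.27, limma adjusted p = 0.56). From 60 to 120 days it was 0.0028 ± 0.32 (95% interval -0.70 to 0.71, adjusted p = 0.999). The dimmer FST probe set read 46.6 to 58.4 in the fetus and 15.9 to 37.6 on the 9 later arrays. It was above the 40th percentile on 4 arrays, the 3 fetal ones and 3 days replicate 2, so it passed the filter through the stage where it is high and had to differ there. With array weights it was called lower at 120 days against 3 days (-0.41, adjusted p = 0.00903).

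MYF5, a factor of muscle precursor cells, was high in the fetus and dim after birth. It read 373, 184 and 572 in the fetus. It read 23.2, 70.1 and 48.8 at 3 days, 36.9, 32.8 and 36.3 at 60 days, and 24.8, 23.2 and 11.3 at 120 days. The fetal arrays did not overlap any later stage, and each array of 120 days lay below each of 60 days. Of the 12 arrays 7 had MYF5 above their 40th percentile. At 120 days it lay between the 9.11 and 28.6 percentile of its array and in the fetus between the 78.3 and 93.4 percentile.

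MYF5 averaged 47.3 ± 23.5 at 3 days, against 376 ± 194 in the fetus (SD, n = 3 each), and fell by 2.47 ± 0.34 on the log2 scale (limma adjusted p = 0.000187). Its change against the fetus was -2.69 ± 0.34 at 60 days (adjusted p = 9.09e-05) and -3.17 ± 0.34 at 120 days (adjusted p = 2.48e-05). The later steps did not pass, with -0.22 ± 0.34 at 60 days against 3 days (limma adjusted p = 0.802) and -0.48 ± 0.34 at 120 days against 60 days (adjusted p = 0.829). At 120 days against 3 days the change was -0.70 ± 0.34 (adjusted p = 0.279), and it was called with array weights (-0.92, adjusted p = 0.00609). MYF5 had the smallest adjusted p of the 9 probe sets in the F test over the 4 stages (7.94e-05).

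MYOD1, the factor best known for turning other cells into muscle, was lower at 60 days than in the fetus and not called at 3 days. Its brighter probe set read 348, 282 and 171 in the fetus. It read 187, 196 and 105 at 3 days, 83.0, 55.6 and 164 at 60 days, and 165, 138 and 103 at 120 days. At 3 days the arrays overlapped those of the fetus, since fetal replicate 3 lay below 2 of them. At 60 and 120 days they lay below all fetal arrays. The means were 267 ± 89.6, 163 ± 50.5, 101 ± 56.1 and 135 ± 31.4 (SD, n = 3) in stage order.

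The log2 change of MYOD1 at 3 days against the fetus was -0.64 ± 0.34 (95% interval -1.38 to 0.11, limma adjusted p = 0.151), and the dimmer probe set gave -0.83 ± 0.35 (adjusted p = 0.0754). The brighter one was called lower with arrays centred on the hybridization controls (adjusted p = 0.0303) and with array weights (adjusted p = 0.0409). The dimmer one was called lower under both settings too, and without 65 dpc replicate 3 (adjusted p = 0.0449) or 60 days replicate 3 (0.047). At 60 days MYOD1 was lower than in the fetus on both probe sets, by -1.29 ± 0.34 (adjusted p = 0.0107) and -1.30 ± 0.35 (adjusted p = 0.0116), and each call remained in all 12 fits that left 1 array out. Without 65 dpc replicate 2 and 60 days replicate 1 together, which were chosen after seeing the data, the changes were -1.16 (adjusted p = 0.0764) and -1.17 (adjusted p = 0.0835). At 120 days against the fetus the brighter probe set gave -0.85 ± 0.34 (adjusted p = 0.0573) and the dimmer -0.91 ± 0.35 (adjusted p = 0.0483). The brighter was called in 4 of 12 fits with 1 array left out, without 65 dpc replicate 3 (0.0225), 3 days replicate 3 (0.0466), 60 days replicate 2 (0.0407) or 60 days replicate 3 (0.0316). The call of the dimmer was lost in 7 of 12 such fits.

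MYF6, the factor of mature fibres, had its lowest mean in the fetus and similar means at the 3 later stages. Its brighter probe set read 266, 146 and 424 in the fetus. It read 331, 464 and 1286 at 3 days, 615, 395 and 1012 at 60 days, and 692, 849 and 437 at 120 days. Fetal replicate 3 lay above 3 days replicate 1 and 60 days replicate 2, so these stages overlapped the fetus, and the arrays of 120 days lay above all fetal ones. The means were 279 ± 139.8, 694 ± 517, 674 ± 313 and 659 ± 208 (SD, n = 3) in stage order.

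The brighter MYF6 probe set did not pass the test against the fetus at any later stage. Its log2 change was 1.13 ± 0.51 at 3 days (limma adjusted p = 0.0893), 1.23 ± 0.51 at 60 days (adjusted p = 0.072) and 1.25 ± 0.51 at 120 days (adjusted p = 0.0588). Without 65 dpc replicate 3 all 3 were called, at adjusted p = 0.0466, 0.0391 and 0.0308 in the same order. Leaving out some other arrays also gave calls. These were 3 days replicate 1 at 3 days (adjusted p = 0.0463) and 120 days (0.0492), 3 days replicate 3 at 60 days (0.0331) and 120 days (0.0255), and 60 days replicate 2 at 60 days (0.0463).

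The dimmer MYF6 probe set read 52.7, 77.9 and 95.8 at 3 days, against 24.6, 33.7 and 57.1 in the fetus. The stages overlapped, by fetal replicate 3 and 3 days replicate 1. It was called higher by 0.71 ± 0.25 at 3 days (limma adjusted p = 0.0366), 0.76 ± 0.25 at 60 days (adjusted p = 0.0292) and 0.84 ± 0.25 at 120 days (adjusted p = 0.0152). Each of the first 2 calls was lost in 4 of 12 fits with 1 array left out, and the third in 2 of 12. At 3 days the call was lost without 65 dpc replicate 1 (adjusted p = 0.137), 65 dpc replicate 2 (0.0979), 3 days replicate 2 (0.0908) or 3 days replicate 3 (0.121). At 60 days it was lost without 65 dpc replicate 1 (0.115), 65 dpc replicate 2 (0.0793), 60 days replicate 1 (0.0618) or 60 days replicate 3 (0.113), and at 120 days without 65 dpc replicate 1 (0.0669) or 120 days replicate 2 (0.0583). With centring on the hybridization controls none of these 3 calls remained (adjusted p = 0.191, 0.225 and 0.195).

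**Figure D2:**
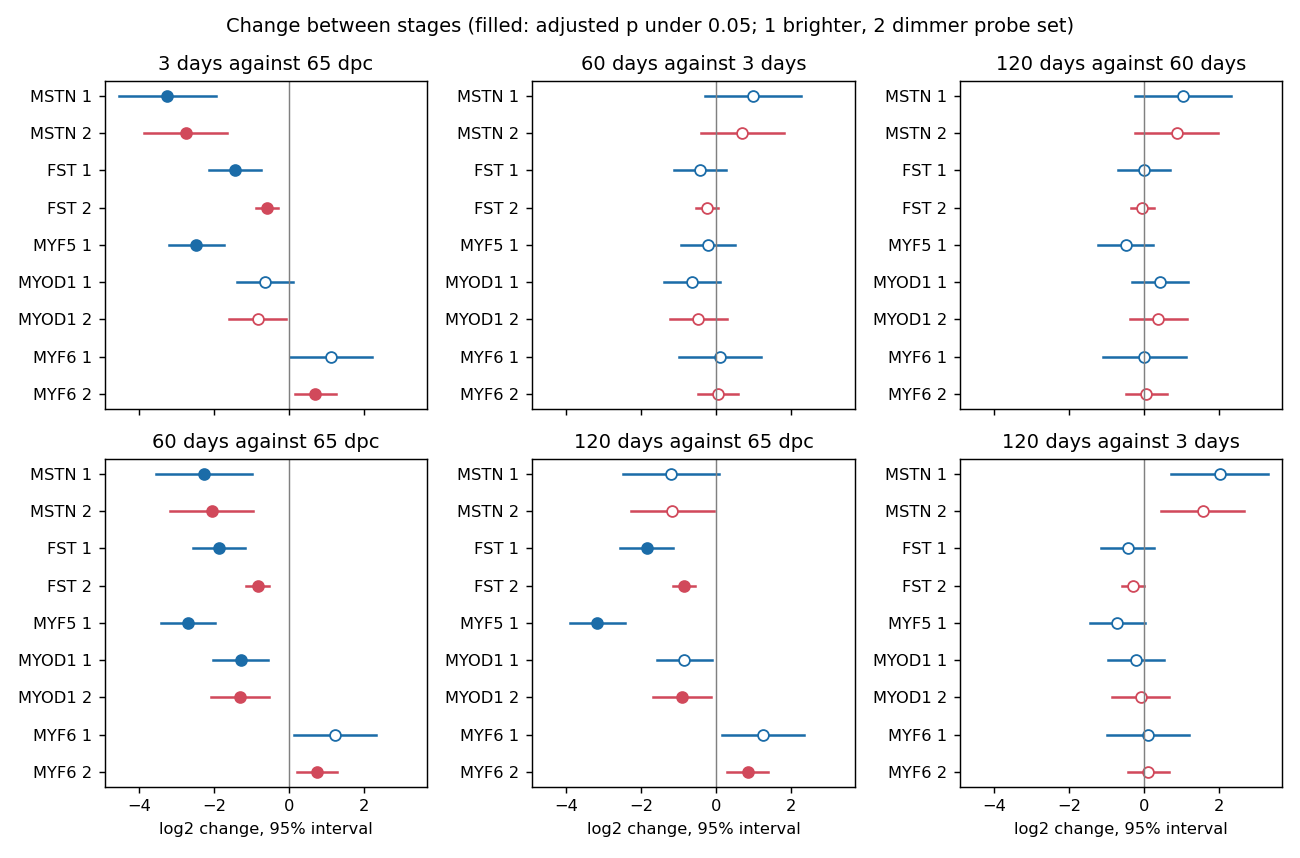
Log2 change with its 95% interval (horizontal) for the 9 probe sets in each of 6 comparisons of stages, where 1 is the brighter and 2 the dimmer probe set of a gene and filled points have a limma adjusted p under 0.05. Calls lie in the 3 panels against 65 dpc, to the left for MSTN, FST, MYF5 and MYOD1 and to the right for the dimmer MYF6 probe set, and the other 3 panels hold 0.

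Counted over the 9 probe sets, 5 were called lower and 1 higher at 3 days against the fetus, where 22.6% of all 16166 were called lower and 20.3% higher (43.0% in either direction). The arrays of these stages did not overlap for 6 of the 9, against 53.0% of all. At 60 days against the fetus 7 were lower and 1 higher, where 20.4% of all were called lower and 18.7% higher (39.1% either way). At 120 days against the fetus 5 were called, namely both FST probe sets, MYF5 and the dimmer probe sets of MYOD1 and MYF6, where 48.4% of all were called. At 120 days the arrays did not overlap those of the fetus for 9 of the 9, against 60.7% of all. At 60 days against 3 days limma called 0 of the 9, where 1.53% of all were called. An unadjusted p under 0.05 was found for 0 of the 9 and for 2680 of all 16166. At 120 days against 60 days limma also called 0 of the 9 and 0 of all, and MYF5 alone did not overlap (13.9% of all). An unadjusted p under 0.05 was found there for 0 of the 9 and for 1021 of all. At 120 days against 3 days limma called 0 of the 9, where 4.42% of all were called. Of the 9, the 2 MSTN probe sets alone had an unadjusted p under 0.05, a share near that of all (3143 of 16166). The 2 MSTN probe sets were also the 2 without overlap of the arrays, against 31.7% of all. The counts against the fetus include the dimmer FST probe set, which passed the filter through the fetal arrays. Without it 4 were lower and 1 higher of 8 at 3 days, 6 lower and 1 higher at 60 days, and 4 were called at 120 days. The arrays then did not overlap those of the fetus for 5 of 8 at 3 days and 8 of 8 at 120 days. The 2 probe sets of a gene are not separate members, and they correlated over the 12 arrays with r from 0.903 (MYF6) to 0.989 (MSTN). Counted by the brighter probe set of each of the 5 genes, 3 were called lower at 3 days against the fetus. At 60 days 4 of the 5 were lower and at 120 days 2, with 0 higher at each of these stages.

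In the F test over the 4 stages 8 of the 9 probe sets passed, or 7 of 8 without the dimmer FST, where 46.9% of all did. The exception was the brighter MYF6 probe set (limma adjusted p = 0.134). MSTN passed at 0.00404 for the brighter and 0.00421 for the dimmer probe set, and the brighter FST at 0.00147. The 2 MYOD1 probe sets passed at 0.0416 and 0.0428, and the dimmer MYF6 probe set at 0.0425. The call of the brighter MYOD1 probe set was lost in 9 of 12 fits with 1 array left out, with adjusted p up to 0.141, that of the dimmer MYOD1 in 7 of 12, with adjusted p up to 0.154, and that of the dimmer MYF6 in 6 of 12, with adjusted p up to 0.208.

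Arrays of 1 stage differed widely in several of these genes. Each sample was on 1 array, so differences between animals and between arrays cannot be told apart. For the brighter MSTN probe set the highest array of a stage was 2.95, 5.51, 9.86 and 1.18 times the lowest in stage order. The SD of its log2 values stood at the 97.1, 98.0 and 99.6 percentile of all tested probe sets at the first 3 stages and at the 40.8 percentile at 120 days. The lowest arrays behind the ratios of 5.51 and 9.86 read 14.6 at 3 days and 26.1 at 60 days. Both lay below the 40th percentile of their array. On the dimmer MSTN probe set the ratio was 2.71 at 3 days, also smaller at 60 days and larger in the fetus. Its SD stood at the 98.1, 92.6, 98.9 and 38.3 percentile in stage order. The SD of the brighter MYF6 probe set lay between the 93.0 and 99.0 percentile at every stage. MYF5 stood at the 97.1 percentile in the fetus and at the 5.52 percentile at 60 days, where it was dim. These percentiles rest on 3 arrays a stage.

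**Figure D3:**
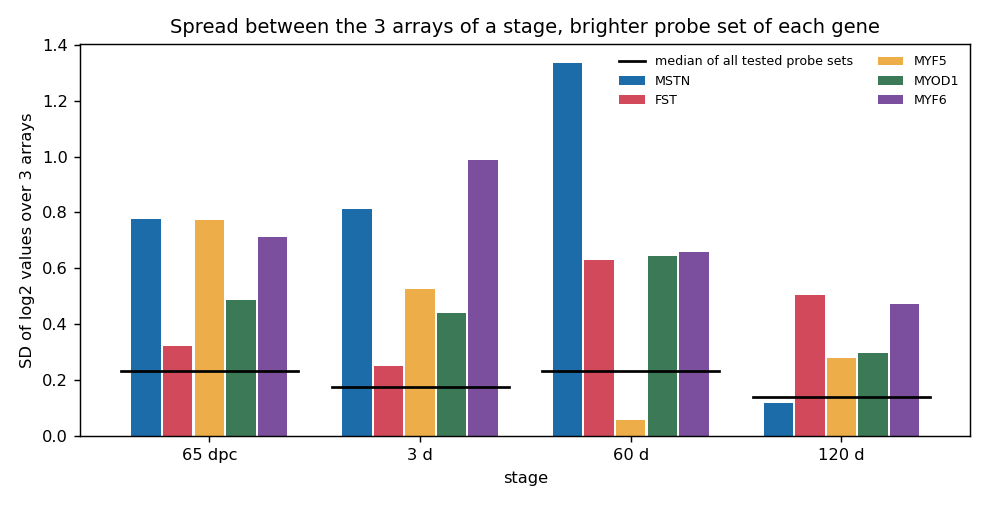
SD of log2(value + 21) over the 3 arrays of a stage (vertical) at each stage (horizontal) for the brighter probe set of each gene, with the median SD of all tested probe sets as a black line. The SD of MSTN is 1.34 at 60 days, against a median of 0.23, and 0.12 at 120 days, against a median of 0.14.

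In the fetus and at 3 days, the arrays that stood apart were not the same for each gene, on the brighter probe sets. Fetal replicate 2 had the highest MSTN and the lowest MYF5, MYF6 and FST of its stage, while the dimmer MYF6 probe set was lowest on fetal replicate 1. At 3 days, replicate 3 had the lowest MSTN and MYOD1 and the highest MYF6. CHRNA1, a subunit of the muscle acetylcholine receptor that is named here after its values were seen, read 152 on that array, against 38.3 and 44.1 on replicates 1 and 2. The actin ratio was 2.58 on that array and 4.69 and 3.56 on the other two. At 60 days, by contrast, replicate 2 had the lowest value of its stage on all 9 probe sets of the 5 genes. The dimmer probe sets read 32.5 (MSTN), 15.9 (FST), 34.6 (MYOD1) and 53.6 (MYF6) on it. Whether this array was low for a shared reason was not tested. In the fetus and at 3 days the 3 arrays ranked in opposite order for the brighter probe sets of MSTN and MYF6, which the dimmer MYF6 probe set did not show in the fetus.

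Follistatin and its target were also compared on the same array, as the log2 difference between their brighter probe sets, whose changes and not whose levels carry meaning. The difference of FST minus MSTN was 1.20 ± 0.92 at 3 days, against -0.60 ± 1.10 in the fetus (SD, n = 3 each), a change of 1.80 with overlapping arrays (exact two-sided permutation p = 0.2, adjusted p = 0.3 over 6 tests). At 60 days it was -0.20 ± 0.71, a change of -1.40 against 3 days (exact permutation p = 0.2). At 120 days it was -1.25 ± 0.61, a change of -1.05 against 60 days (exact permutation p = 0.2).

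MYF5 and MYF6 are neighbours in the pig genome, with 0 other genes between them in the RefSeq gene table (Sscrofa11.1). The difference of the brighter MYF6 probe set minus MYF5 was 2.99, 2.41 and 4.23 on the arrays of 3 days, against -0.46, -0.30 and -0.41 in the fetus. The stages did not overlap, and the change was 3.60 (exact two-sided permutation p = 0.1, the smallest that 3 arrays against 3 allow, adjusted p = 0.3). At 60 days the difference was 3.53 ± 0.61 (exact permutation p = 0.8 against 3 days) and at 120 days 4.03 ± 0.24 (exact permutation p = 0.3 against 60 days).

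**Figure D4:**
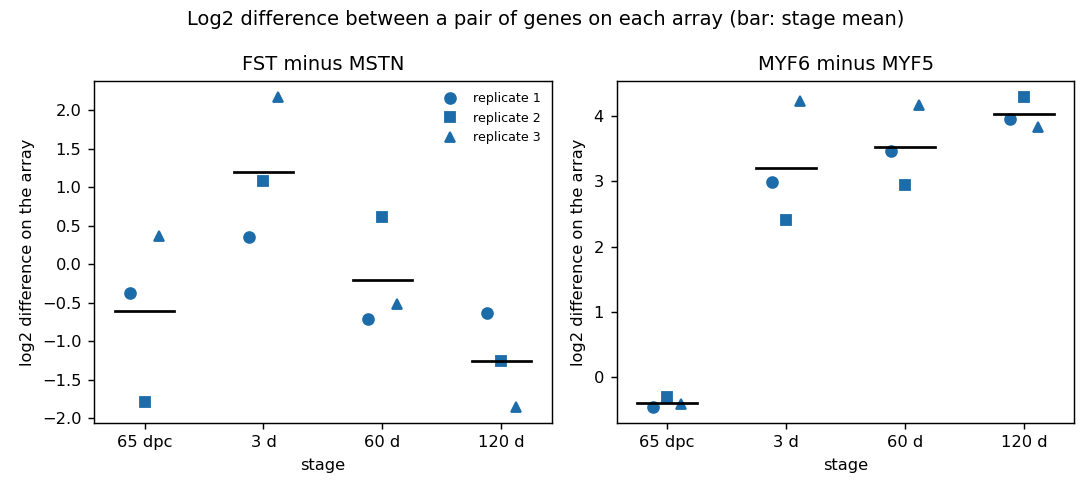
Log2 difference on each array (vertical) between FST and MSTN (left) and between MYF6 and MYF5 (right) at the 4 stages (horizontal), with a bar at the stage mean. The fetal arrays of MYF6 minus MYF5 lie between -0.46 and -0.30 and all later arrays between 2.41 and 4.30, while the stages of FST minus MSTN overlap from each to the next.

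Other genes of myostatin and activin signalling were also compared at 3 days against the fetus. Of a list of 39 genes 15 were measured, of which 6 fell and 1 rose. Of all probe sets 22.6% were called lower and 20.3% higher. The share called in either direction was near the 43.0% of all probe sets. The list had a median log2 change of -0.45, against -0.00045 for all probe sets. The ligands TGFB2 and TGFB3 fell by 1.87 ± 0.21 and 1.79 ± 0.18. TGFB2 read 83.5, 119 and 64.4 at 3 days, against 339, 413 and 373 in the fetus, and TGFB3 read 51.1, 42.7 and 31.4, against 179.6, 204 and 201. The second TGFB3 probe set was not called. The receptors ACVR2A, which binds myostatin and activins, and TGFBR1 fell by 0.40 ± 0.13 and 0.63 ± 0.19. The second TGFBR1 probe set was not called. The call of ACVR2A was lost without 65 dpc replicate 2, 3 days replicate 1 or 3 days replicate 2, and that of TGFBR1 without 65 dpc replicate 2 or 3 days replicate 1.

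Among signal transducers SMAD1, which carries signals of bone morphogenetic proteins, fell by 1.16 ± 0.29, and SMAD4, the shared partner of receptor-regulated SMADs, was at -0.45 ± 0.21, which did not pass. Decorin (DCN), a matrix proteoglycan that binds growth factors of this family and is also a fibroblast marker, fell by 1.10 ± 0.21. The member that rose was FSTL3, a relative of follistatin that also binds myostatin and activins. It read 163, 139 and 189 at 3 days, against 82.8, 78.0 and 123 in the fetus, without overlap (0.69 ± 0.18, limma adjusted p = 0.00963). The call was lost with arrays centred on the hybridization controls (adjusted p = 0.131). At the 2 later steps 0 of the 15 were called by limma, where 1.53% and 0 of all 16166 probe sets were called. An unadjusted p under 0.05 was found for 1 and 0 of the 15, and for 2680 and 1021 of all.

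Of 41 genes that regulate myogenic factors 16 were measured, of which 5 fell and 2 rose at 3 days, a share called near the 43.0% of all probe sets, with a median of -0.12. MEOX2, a homeobox factor of the early somite and limb muscle, fell by 1.77 ± 0.34. It read 55.4, 38.6 and 30.2 at 3 days, against 173, 321 and 119 in the fetus. Inhibitors of basic helix-loop-helix factors fell in 3 of 8 cases, HES1 (-1.24 ± 0.32), ID1 (-1.09 ± 0.40) and TWIST2 (-0.47 ± 0.11). ID2, of the same class, was called higher (0.41 ± 0.15), a call lost on the hybridization controls (limma adjusted p = 0.55) and in 4 of 12 fits that left 1 array out. MEF2A, a partner of the myogenic factors, fell by 0.57 ± 0.21, but the calls of MEF2A and ID1 each remained in 5 of 12 such fits and the second MEF2A probe set was not called. TEAD4, a transcription factor of myoblast differentiation in mouse cells, rose by 1.02 ± 0.22. It read 680.3, 679.5 and 792 at 3 days, against 336, 295 and 401 in the fetus, without overlap. At the later steps 0 of the 16 were called by limma, where 1.53% and 0 of all 16166 probe sets were called. An unadjusted p under 0.05 was found for 4 and 1 of the 16, and for 2680 and 1021 of all.

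Of 32 genes of satellite cells and myoblasts 12 were measured, of which 6 fell and 0 were called higher at 3 days by limma. Of all probe sets 22.6% were called lower and 20.3% higher, or 43.0% in either direction. The list had a median log2 change of -0.60. NCAM1, an adhesion molecule of myoblasts and of fibres not yet innervated, fell by 2.84 ± 0.18, to 51.8, 45.4 and 24.0 at 3 days, against 459, 364 and 408 in the fetus. Of 3 further NCAM1 probe sets 2 were called lower and 0 higher. RBPJ was counted as not called, while 2 of its 2 further probe sets were called lower. JAM3, a junction adhesion molecule, fell by 2.27 ± 0.19 and VCAM1, an adhesion molecule of satellite cells and endothelium, by 2.02 ± 0.49. The chemokine receptor CXCR4 fell by 1.68 ± 0.21, NEO1 (neogenin) by 1.29 ± 0.28 and CD34 by 0.70 ± 0.15. At the later steps 0 of the 12 were called by limma, where 1.53% and 0 of all 16166 probe sets were called. An unadjusted p under 0.05 was found for 0 of the 12 at each, and for 2680 and 1021 of all. Annotated probe sets of MYOG and PAX7 were not among those analysed here.

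**Figure D5:**
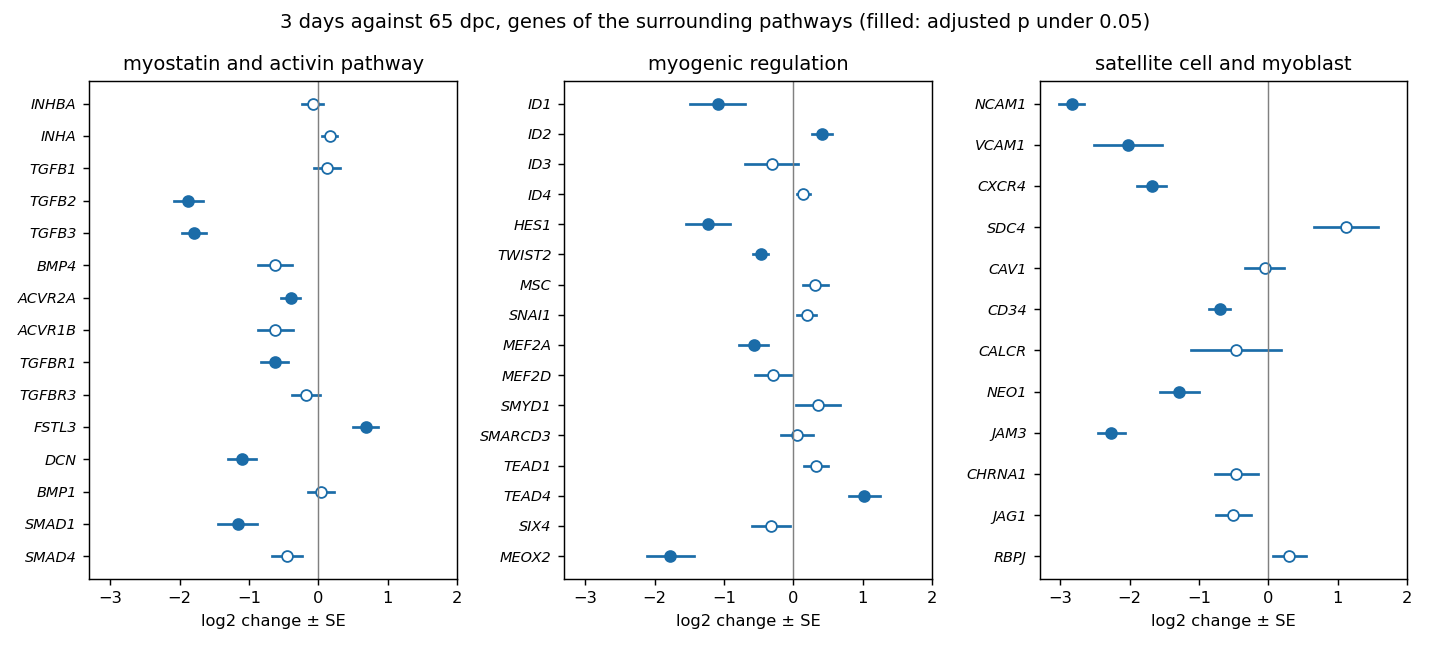
Log2 change ± SE (horizontal) at 3 days against 65 dpc for the measured genes of the lists of myostatin and activin signalling (15), myogenic regulation (16) and satellite cells and myoblasts (12). Filled points have a limma adjusted p under 0.05, and of these TGFB2, TGFB3, MEOX2, NCAM1, JAM3 and VCAM1 lie below -1.7 while FSTL3, ID2 and TEAD4 lie above 0.

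Markers of other cells moved at the same step. Of muscle fibre markers 6 of 7 rose, of fibroblast markers 5 of 7 fell, and of adipocyte markers 3 of 4 rose, where 20.3% of all probe sets were called higher and 22.6% lower. With the arrays' centre taken from the hybridization controls, the 3 adipocyte calls were lost (FABP4 at adjusted p = 0.0652, LEP at 0.365 and LPL at 0.0609), as were those of the fibre markers CKM (0.142) and TNNC2 (0.731) and of SOX10 (0.3), a marker of Schwann cells. Of endothelial markers 1 of 6 fell, of erythroid markers 1 of 3 fell, of nerve and Schwann cell markers 2 rose and 1 fell of 3, and of immune markers limma called 0 of 3, with 0 at an unadjusted p under 0.05. The calls of CKM, LPL and SOX10 each remained in 10 of 12 fits that left 1 array out, and that of LEP in 11. Those of CDH5 (endothelium) and HBB (erythroid) each remained in 9, FABP4 in 8, S100B (nerve and Schwann cells) in 5 and TNNC2 in 4. The other calls of these markers remained in all 12. The second CDH5 probe set was not called, and that of TEK, an endothelial marker counted as not called, was called higher. The part of these other cells in the changes of MSTN, FST, MYF5, MYOD1 and MYF6 was not tested.

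The genes with the most similar patterns over the 12 arrays were ranked among 5611 by the root mean square difference of centred log2 values. For MSTN, whose own values varied by 1.401 about their mean, they were THY1, a cell-surface glycoprotein (0.62), HTRA1, a secreted serine protease (0.73), and OCA2 (0.75). For FST (0.85) they were LAMB1, a laminin chain (0.23), EML4, a microtubule protein (0.31), and DSE, an enzyme of dermatan sulfate synthesis (0.32). For MYF5 (1.29) they were the maternally expressed RNA MEG3 (0.43), TMEM158 (0.43) and ISYNA1 (0.46). For MYOD1 (0.61) they were MYADM (0.27), GALNT7 (0.29) and APOA1 (0.30), and for MYF6 (0.79) RHBDF2 (0.46), ZNF232 (0.47) and BTG2 (0.47). Against the spread of the member itself, the best match of FST was the closest of the 5 and that of MYF6 the least close. The 12 arrays are shared by all these genes, so the differences are descriptions and no test was made.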

How the data were processed

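Per the labels' protocols, Trizol RNA of 12 muscle samples was biotin-labelled and hybridised to 1 Affymetrix array each. The deposited values are intensity values on a linear scale, processed with GCOS 1.4 per the submitters' processing notes. How background, summary and scaling were done is not given in the sources used here. Of 24123 probe sets 124 controls were set aside. The pseudocount of log2(value + 21) is the values' 25th percentile. A filter at each array's 40th percentile, passed on at least 3 arrays, chose what entered 1 limma fit with a variance trend and 1 mean per stage. Tests were two-sided, adjusted by Benjamini-Hochberg over 16166 probe sets and called under 0.05. The number of arrays limits the precision.

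By the platform annotation of 2016, 10069 probe sets had 1 symbol and 198 several, and 13732 were not listed. A gene with several probe sets stood in lists by its brightest. Named were all members, up to 4 called genes per list and step with the largest changes, genes called against their list, and the 3 most similar genes per member. Other called genes of lists, NCAM1 and CHRNA1 as markers, SMAD4, RBPJ, TEK, MYOG and PAX7 were named after values were seen. The members and lists were chosen with earlier results of these data known. Of 159 list symbols 82 were on the array and 75 were measured.

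The replicate numbers did not pair the arrays. Alternatives were pseudocounts of 1 and 51, other filters, 3 other scalings, 6 arrays, replicate block, no trend, array weights and leaving out arrays. The fit was tested on simulated data. Fits ran in R 4.3.3 with limma 3.58.1, and figures in Python 3.11.15 with pandas 2.3.3, NumPy 2.4.6 and matplotlib 3.10.9.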

Additional observations from a re-analysis of the deposited data

How the results depend on the processing

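The falls of MSTN, FST and MYF5 at 3 days and of FST, MYF5 and MSTN at 60 days against the fetus, and of FST and MYF5 at 120 days, kept direction and call on the brighter probe sets under all 24 alternatives. With array weights calls were gained at 3 days against 65 dpc for MYOD1 (-0.65), at 120 days against 3 days for MYF5 (-0.92) and MSTN (1.71), at 120 days against 65 dpc for MYOD1 (-1.02), MSTN (-1.09) and MYF6 (1.34), at 60 days against 65 dpc for MYF6 (1.38) and overall for MYF6 (adjusted p = 0.018). At 120 days against 60 days MYF6 turned to -0.037, 926 probe sets were called at 60 days against 3 days in place of 247, and 1 pathway gene in place of 0 by limma. With centring on the hybridization controls, which moved the median of all probe sets to -0.28 at 3 days against 65 dpc, MYOD1 was called at 3 days (-0.92) and 120 days (-1.28) against 65 dpc and MSTN at 120 days (-1.65). The same centring called 1253 probe sets higher at 3 days in place of 3286. It also turned uncalled values at 120 days against 3 days for the 2 MYF6 probe sets (-0.037 and -0.026), at 60 days against 3 days for the dimmer (-0.037), and at 120 days against 60 days for MYF6 (-0.045) and FST (-0.061).

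FST at 120 days against 60 days was also -0.00392 with median centring and -0.00365 with the pseudocount at 51, which called MYOD1 at 120 days against 65 dpc (-0.74). With only the 6 arrays compared, calls at 120 days against 65 dpc were gained for MYOD1 (-0.85), MSTN (-1.21) and MYF6 (1.25), at 120 days against 3 days for MSTN (2.03), and 39 probe sets were called at 60 days against 3 days. Quantile normalization called MYF6 at 120 days against 65 dpc (1.38) and lost MYOD1 overall (adjusted p = 0.0725). Without a filter 1 probe set was called at 120 days against 60 days. Without 65 dpc replicate 2 and 60 days replicate 1 together, an alternative chosen after seeing the data, MYOD1 lost its calls at 60 days against 65 dpc (-1.16) and overall (adjusted p = 0.212), MSTN was called at 120 days against 3 days (2.03), the dimmer MYF6 lost its calls against 65 dpc at 3, 60 and 120 days (adjusted p = 0.111, 0.134 and 0.0569) and overall (0.181), the dimmer FST turned to 0.049 at 120 days against 60 days, and 111 probe sets were called at 60 days against 3 days. The overall call of the dimmer MYOD1 was also lost with pseudocount 1 (adjusted p = 0.05001), quantile normalization (0.0851), median centring (0.0503), no variance trend (0.0528) and without those 2 arrays (0.223), and its call at 120 days against 65 dpc under the same 5 settings (0.0621, 0.0989, 0.0548, 0.0561 and 0.136). The overall call of the dimmer MYF6 was lost with the pseudocount at 51 (0.0506), no variance trend (0.055) and the hybridization controls (0.386), and its call at 60 days against 65 dpc with only the 6 arrays (0.0507). With array weights the dimmer FST was called at 120 days against 3 days (-0.41). The dimmer MSTN was called at 120 days against 65 dpc on the hybridization controls (adjusted p = 0.0157), with only the 6 arrays (0.0352) and with array weights (0.00584). At 120 days against 3 days the dimmer MSTN was called with only the 6 arrays (0.0108) and with array weights (0.00114). It was also called there without 65 dpc replicate 2 and 60 days replicate 1 together (0.0284).

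Same-numbered arrays deviated together, with r over 0.1, in 8 of 18 pairs (r -0.42 to 0.30), and 3 of 12 arrays correlated best with their own number, so the numbers did not pair the arrays. Among all pairs of arrays from different stages, the highest r was 0.65, between 65 dpc replicate 2 and 60 days replicate 1. These are the arrays that were left out together. With the replicate block 161 probe sets were called at 60 days against 3 days, MYF6 was called at 120 days against 65 dpc (1.25, adjusted p = 0.0442) and MYOD1 was not called overall (adjusted p = 0.0545), nor its dimmer probe set at 120 days against 65 dpc (adjusted p = 0.0523). With the replicate block no other call of the members changed.

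Leaving out 1 array at a time gave these log2 ranges. MYF6 had 0.58 to 1.52 at 3 days, 0.86 to 1.57 at 60 days and 0.88 to 1.59 at 120 days against 65 dpc, -0.30 to 0.65 at 60 days and -0.28 to 0.67 at 120 days against 3 days, and -0.30 to 0.35 at 120 days against 60 days. Its dimmer probe set had -0.13 to 0.25, -0.055 to 0.28 and -0.12 to 0.25 in these last 3. MYF5 had -0.50 to 0.019 at 60 days against 3 days. FST had -0.34 to 0.28 at 120 days against 60 days, and its dimmer probe set -0.13 to 0.049. MSTN had -1.54 to -0.78 at 120 days against 65 dpc and 1.56 to 2.32 against 3 days. MYOD1 had -1.12 to -0.64 at 120 days against 65 dpc, and its dimmer probe set -0.39 to 0.17 against 3 days. MYF6 minus MYF5 had -0.083 to 0.82 at 60 days against 3 days. The overall adjusted p of MYOD1 was 0.011 to 0.141. Probe sets called were 75 to 297 at 60 days against 3 days and 0 to 5 at 120 days against 60 days, and pathway genes 0 to 1 at 60 days against 3 days. The causes of these shifts were not tested. An alternative background correction was not run, since it needs scanner files.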
